A study of Mus musculus with 10 samples.

Results

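The genes described here are 36 listed genes of the peroxisome, out of 56748 genes in the count table. They were chosen by name and function, with earlier results of these data known, and each matched 1 row of the table. They comprise 13 peroxins, which build and divide the organelle, 2 importers of the ABC family, enzymes of alpha-oxidation and ether lipid synthesis, oxidases and other matrix enzymes, and 3 further membrane proteins. The core enzymes of peroxisomal beta-oxidation are not among them. RNA was sequenced from primary hepatocytes of wild-type mice after overnight exposure to medium conditioned by adipocytes. The adipocytes were differentiated in culture from stromal vascular cells of the inguinal fat pad of male Mttpf/f or A-Mttp-/- mice that had eaten an obesogenic diet for 6 months (n = 3 mice per the labels), and were starved overnight. Mttp encodes the microsomal triglyceride transfer protein, and A-Mttp-/- mice lack it in adipose tissue; which promoter drives the deletion, and how old the mice were, is not given in the sources used here. Both groups of adipocytes had received the same differentiation mix of insulin, dexamethasone, IBMX, indomethacin and rosiglitazone, an agonist of PPARγ. Hepatocytes given medium of floxed adipocytes form the group Mttp_flox_CM and those given medium of knockout adipocytes the group Mttp_KO_CM, with 5 libraries each. With 3 fat donor mice against 5 libraries per group, the libraries of a group cannot each stem from a separate fat donor. Whether they stem from different cultures or hepatocyte donors is not stated. The p-values therefore reflect library-to-library spread, which may be technical, and cannot stand for 5 separate fat donors.

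Peroxisomes are bounded by a membrane and import folded enzymes from the cytosol. Soluble receptors bind the targeting signal of an enzyme, dock at the membrane, release the cargo inside and are pulled out again after ubiquitination. In hepatocytes the organelle oxidises very long and branched fatty acids, makes the first intermediates of ether lipids, detoxifies glyoxylate, degrades urate and breaks down the hydrogen peroxide that its oxidases form. In rodent liver its abundance and many of its genes are known to respond to the nuclear receptor PPARα.

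Most of these genes rose in hepatocytes given knockout medium, and the rises were unequal. Of 36 genes, 35 passed the filter on low counts and were tested, 21 were higher and 2 lower in Mttp_KO_CM, and 12 did not pass (edgeR, Benjamini-Hochberg adjusted p under 0.05). Over all 14183 genes tested, 18.2% were higher and 18.1% lower, against 60.0% and 5.71% of the 35. With library size alone in place of TMM scaling the split over all genes was 1982 higher and 3217 lower, and of the 35 genes 19 were higher and 2 lower. The median log2 change, always given as Mttp_KO_CM over Mttp_flox_CM, was 0.17 over the 35 genes and 0.00 over all genes tested. Values are CPM, counts scaled to a common library size after TMM normalisation, unless another unit is named. The 2 groups did not overlap in 19 of the 35 genes, each time with Mttp_KO_CM above, where 25.7% of all genes were apart in either direction and 13% in that one. A rise of 1.5-fold or more was found in 6 genes, Pex11a, Abcd3, Hacl1, Pxmp4, Mlycd and Ech1, where 2.43% of all genes tested rose that far, and the other 15 rises were smaller. A fall of that size was found in 0 of the 35 genes and in 5.05% of all. In the plot of changes by role, these 6 stand to the right of every other gene. The D-amino acid oxidase gene Dao had 0 counts in all 10 libraries, which allows up to 3 counts, or between 0.177 and 0.214 CPM per library, by counting error alone.

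**Figure D1:**
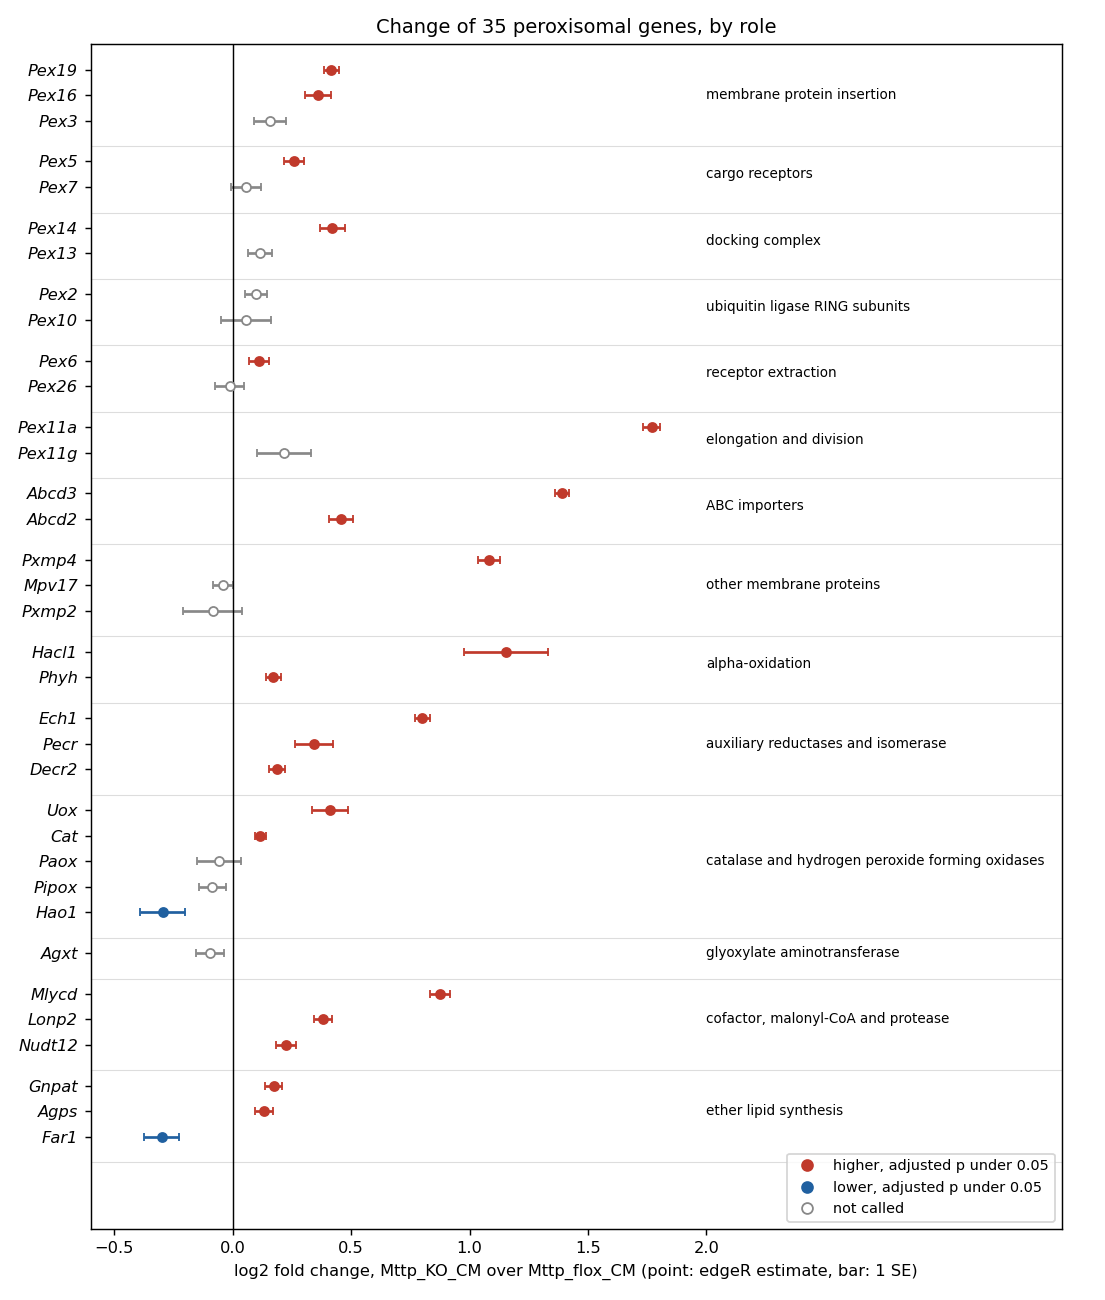
Fitted log2 fold change (Mttp_KO_CM over Mttp_flox_CM, x axis) of the 35 genes tested, grouped by role, with bars of 1 SE; red points were higher and blue points lower at an edgeR adjusted p under 0.05, and open grey points did not pass. Pex11a lies furthest right at 1.77, and Hao1 and Far1, each at -0.30, are the 2 genes that fell.

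Markers of other liver cells differed between the same libraries. Hepatocyte markers were present throughout, with a summed level of 61560 to 64204 CPM in Mttp_flox_CM and 51222 to 53195 CPM in Mttp_KO_CM over 19 genes, 5 of them higher and 12 lower; Serpina1b fell by 0.71 and Apoa1 by 0.54 on the log2 scale. All 17 endothelial markers fell, with summed levels of 2614 to 2797 and 1491 to 1575 CPM, Eng by 1.12 and Kdr by 1.44. Of 20 macrophage markers 17 fell and 2 rose, with sums of 1313 to 1444 and 1039.9 to 1128 CPM, Cd163 falling by 1.06 and Mrc1 by 1.14. Of 14 stellate cell and fibroblast markers tested 12 fell and 0 rose, with sums of 342 to 362 and 248 to 262 CPM, Col1a1 falling by 1.36 and Col3a1 by 1.07. Of 7 cholangiocyte markers tested 4 fell and 0 rose, with sums of 570.3 to 634 and 317 to 384 CPM, among them Spp1 (-0.86) and Cldn4 (-0.44). The 3 adipocyte markers tested rose, among them Lipe by 1.07 and Cidea by 0.71, with sums of 102 to 116 and 126 to 138 CPM, while the fat cell hormone Lep and the adipsin gene Cfd had 0 counts everywhere. Lymphocyte and neutrophil markers summed to 2.25 to 3.35 and 2.13 to 3.14 CPM, with Cd3g, Nkg7, Ncr1 and Ly6g at 0, and neither Il7r (log2 -0.41) nor Csf3r (-0.01) passed. Red cell markers summed to 1.49 to 2.74 and 1.40 to 2.37 CPM, and Hba-a1 (-0.30) did not pass. The part of these shifts in the changes of peroxisomal genes was not tested, and in bulk RNA fewer cells of a type and less RNA per cell cannot be told apart.

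The stretches of 250 bases before the start site of the 2 genes with the largest log2 rise, Pex11a and Abcd3, and of the 2 that fell, Hao1 and Far1, are shown to set their base composition side by side. They are RefSeq sequences on GRCm38.p6, an older build than that of the count table, read in the direction of the gene, with capitals on every CpG dinucleotide; where several start sites are listed, the most upstream is used.
Pex11a, chr7:79743132-79743381, minus strand: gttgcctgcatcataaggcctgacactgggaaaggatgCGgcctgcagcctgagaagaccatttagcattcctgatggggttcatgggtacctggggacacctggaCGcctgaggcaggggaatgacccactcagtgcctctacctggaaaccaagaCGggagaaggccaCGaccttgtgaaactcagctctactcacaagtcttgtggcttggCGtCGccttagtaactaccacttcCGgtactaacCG
Abcd3, chr3:121815303-121815552, minus strand: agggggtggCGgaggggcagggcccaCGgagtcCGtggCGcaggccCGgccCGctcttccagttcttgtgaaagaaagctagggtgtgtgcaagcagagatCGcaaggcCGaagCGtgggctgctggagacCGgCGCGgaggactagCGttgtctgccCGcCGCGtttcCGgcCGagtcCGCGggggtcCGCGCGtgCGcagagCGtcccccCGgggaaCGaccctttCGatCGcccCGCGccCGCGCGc
Hao1, chr2:134554353-134554602, minus strand: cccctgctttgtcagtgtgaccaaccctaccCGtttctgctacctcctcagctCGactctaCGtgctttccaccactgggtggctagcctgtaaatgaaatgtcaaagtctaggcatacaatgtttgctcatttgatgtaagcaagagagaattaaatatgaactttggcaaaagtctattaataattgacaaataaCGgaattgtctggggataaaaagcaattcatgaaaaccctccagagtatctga
Far1, chr7:113513584-113513833, plus strand: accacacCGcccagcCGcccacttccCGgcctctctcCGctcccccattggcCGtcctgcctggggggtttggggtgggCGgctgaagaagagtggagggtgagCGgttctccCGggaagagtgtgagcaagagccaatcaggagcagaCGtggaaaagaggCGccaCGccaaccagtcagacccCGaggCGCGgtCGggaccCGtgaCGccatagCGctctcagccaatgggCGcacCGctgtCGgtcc
These windows hold 8 CpG in Pex11a, 34 in Abcd3, 4 in Hao1 and 21 in Far1. Over the members with a window the median was 13.5 CpG in the 18 that rose, 12.5 in the 2 that fell and 11.5 in the 10 not called, and the ranges overlapped. RefSeq listed a start site for 31 of the 36 genes, and their windows had a median of 12 CpG, against 6 over 27025 windows, 1 per gene. The 27025 windows were not limited to genes tested here. A direct repeat of AGGNCA with 1 base between the copies, the general form of a PPARα and RXR element, was searched on both strands. It was found in 0 of the 31 windows and in 0.337% of all, a share too low for 0 to show a difference. Its single element AGGTCA was found in 2 of 31, those of Cat and Pex11g, and in 13.8% of all; a repeat can contain this element. The GC box GGGCGG occurred in 18 of 31 windows, or 58.1%, and in 33.0% of all, and the CCAAT box in 29.0% and 34.5%. A match of letters is a description and not a binding site, and these windows leave out more distant sequence.

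Among the peroxins, 6 of 13 rose and 0 fell, and the largest change by far was in Pex11a. Membrane proteins are inserted with the help of Pex3, Pex16 and Pex19, of which Pex19 is the soluble chaperone. Pex19 was at 113, 114, 106, 112 and 117 CPM in Mttp_flox_CM replicates 1 to 4 and the unnumbered library, the order used for all values below, and at 150.3, 153, 152, 147 and 146 CPM in Mttp_KO_CM. All 5 Mttp_KO_CM libraries lay above all 5 of the other group (log2 0.42, SE 0.032, edgeR adjusted p = 1.8e-10). Pex16 rose from 33.3 ± 2.60 to 42.8 ± 2.28 CPM (mean ± SD, n = 5; log2 0.36). Pex3 was at 19.6 ± 0.917 and 21.9 ± 1.85 CPM (log2 0.16, edgeR adjusted p = 0.067) and passed only without Mttp_KO_CM replicate 4 (log2 0.21, edgeR adjusted p = 0.011).

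Import receptors and their docking site split in the same manner, with a member of each pair higher and the other not called. Pex5, the receptor for the common carboxy-terminal signal, rose from 81.7 ± 2.45 to 97.8 ± 5.91 CPM, by 0.26 in log2 (SE 0.041, edgeR adjusted p = 1.8e-05). Pex7, the receptor for the rarer amino-terminal signal carried by Phyh and Agps, was at 25.6 ± 2.00 and 26.6 ± 2.23 CPM (log2 0.06, SE 0.064). Of the docking proteins, Pex14 rose from 33.2 ± 2.40 to 44.5 ± 2.45 CPM (log2 0.42, SE 0.053), without overlap between groups. Pex13 was at 39.1 ± 1.67 and 42.3 ± 2.96 CPM (log2 0.11, SE 0.050, edgeR adjusted p = 0.083), and passed without Mttp_KO_CM replicate 1 or 2 (log2 0.14 in each case). Whether the members of a pair differ from each other in their change was not tested.

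Of 4 genes for receptor recycling, 1 passed. The ubiquitin ligase subunits Pex2 and Pex10 had log2 changes of 0.10 (SE 0.046) and 0.06 (SE 0.11), and neither passed. Pex6, an ATPase that extracts the receptor, was at 78.5 ± 4.25 and 84.9 ± 4.01 CPM with overlapping groups (log2 0.11, SE 0.043, edgeR adjusted p = 0.044). Its call was lost under 15 of 20 alternatives, among them leaving out Mttp_flox_CM replicate 1, 3, 4 or the unnumbered one, or Mttp_KO_CM replicate 1, 3 or the unnumbered one. Pex26, the membrane anchor of Pex6, was at 22.5 ± 0.762 and 22.3 ± 1.95 CPM (log2 -0.01).

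The division factor Pex11a showed the largest change of the 35 genes. It was at 56.9, 60.4, 58.0, 59.1 and 65.5 CPM in the Mttp_flox_CM libraries and at 209, 199.0, 204, 201 and 209 CPM in the Mttp_KO_CM libraries. The groups were far apart and the spread within each was small, and the change was 3.41-fold (log2 1.77, SE 0.037, edgeR adjusted p = 5.1e-22). Pex11a (ENSMUSG00000030545) is a minus-strand gene at chromosome 7, 79385705 to 79392879, in GRCm39. An uncharacterised antisense RNA gene there, Gm44706, had 5.43% of its counts and a log2 change of 1.87, and without strand information their reads cannot be told apart. The related gene Pex11g was low, at 6.14 ± 0.576 and 7.14 ± 0.876 CPM (log2 0.22, SE 0.11, edgeR adjusted p = 0.15).

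Both fatty acid importers rose, with the larger fitted change in Abcd3; the difference between them was not tested. Abcd3, which carries dicarboxylic and branched acyl groups and bile acid intermediates into the organelle, was at 309.9, 309, 300.3, 297 and 325 CPM and at 843, 825, 801, 776 and 793 CPM. Every library of Mttp_KO_CM exceeded the highest of Mttp_flox_CM by more than the whole range within either group (log2 1.39, SE 0.029, edgeR adjusted p = 5.5e-22). Abcd3 (ENSMUSG00000028127) is a minus-strand gene at chromosome 3, 121552423 to 121608951, in GRCm39. Abcd2, an importer of very long chain fatty acids, rose from 43.7 ± 2.95 to 59.9 ± 3.73 CPM (log2 0.46, SE 0.051). The FPKM of Abcd3, counts scaled to gene length and sequencing depth, was 6.05 to 6.63 times that of Abcd2 in Mttp_flox_CM libraries and 10.8 to 13.7 times in Mttp_KO_CM libraries.

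Of the other membrane proteins only Pxmp4 passed. Its values were 41.9, 40.0, 38.5, 44.3 and 40.3 CPM in Mttp_flox_CM and 92.8, 89.9, 84.6, 85.2 and 81.6 CPM in Mttp_KO_CM. These groups were separated by a wide gap (log2 1.08, SE 0.046, edgeR adjusted p = 1.3e-15). Pxmp2, a channel-forming protein of the peroxisomal membrane, was at 7.53 ± 1.51 and 7.12 ± 0.442 CPM (log2 -0.09, SE 0.12). Mpv17, a relative of Pxmp2 found mainly in the mitochondrial inner membrane, was at 40.7 ± 0.846 and 39.6 ± 1.31 CPM (log2 -0.04, SE 0.042).

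**Figure D2:**
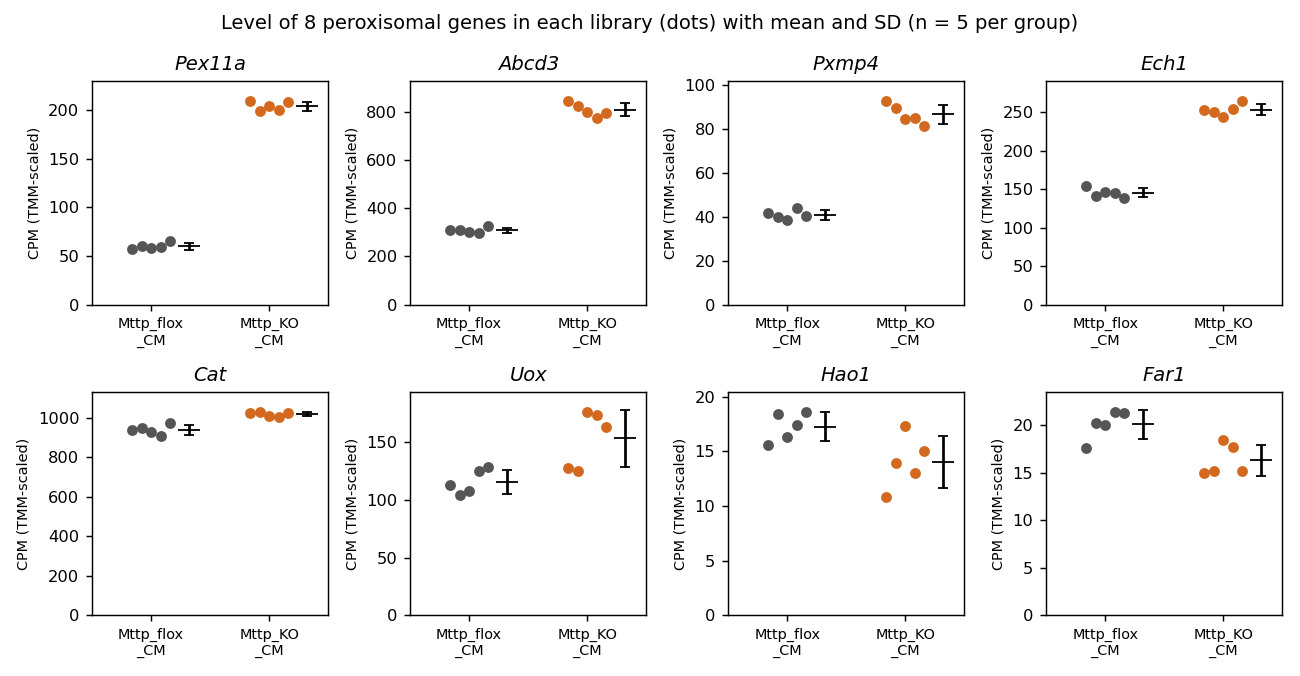
CPM (y axis, from 0) of 8 genes in each library, as grey dots for Mttp_flox_CM and orange dots for Mttp_KO_CM, with the mean and SD of 5 libraries beside them; the sideways order of dots has no meaning. Pex11a, Abcd3, Pxmp4, Ech1 and Cat show no overlap between groups, whereas Uox, Hao1 and Far1 do, and Uox splits within Mttp_KO_CM.

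Both alpha-oxidation enzymes rose, from very different levels. Phyh, which starts the breakdown of phytanic acid, rose from 191 ± 6.33 to 215 ± 7.48 CPM, by 0.17 in log2 (SE 0.031, edgeR adjusted p = 1.2e-04). Hacl1, the lyase of the pathway, was at 2.37, 1.87, 2.36, 2.36 and 1.50 CPM in Mttp_flox_CM and at 4.99, 3.93, 4.38, 3.89 and 6.28 CPM in Mttp_KO_CM. The groups did not overlap, but these values rest on 22 to 88 counts per library (log2 1.15, SE 0.18, edgeR adjusted p = 1.0e-05). On log2 of FPKM plus 1 the change of Hacl1 was 0.45, where the added 1 exceeds its mean FPKM of 0.42 in Mttp_flox_CM and 0.94 in Mttp_KO_CM. The gene Btd, which overlaps Hacl1 on the opposite strand, had 8422 counts in all to 515 for Hacl1 and a log2 change of 0.27, so the change of Hacl1 was not separated from that of Btd.

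All 3 genes listed as auxiliary reductases and isomerase rose. Ech1, a dienoyl-CoA isomerase found in peroxisomes and mitochondria, was at 154, 141, 147, 145 and 139 CPM and at 253, 250.5, 244, 254 and 264 CPM. The lowest Mttp_KO_CM library stood well above the highest Mttp_flox_CM library (log2 0.80, SE 0.032, edgeR adjusted p = 3.9e-16). The enoyl-CoA reductase Pecr rose from 12.7 ± 1.39 to 16.2 ± 0.628 CPM (log2 0.34, SE 0.079). The dienoyl-CoA reductase Decr2 rose from 123 ± 5.24 to 139.6 ± 2.46 CPM (log2 0.19, SE 0.034).

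Of the 5 genes tested for catalase and the oxidases that form its substrate, Cat and Uox rose, Hao1 fell, and Paox and Pipox did not pass. Cat, the catalase, was at 938, 948, 929, 909 and 973 CPM in Mttp_flox_CM and at 1023, 1029, 1012, 1003 and 1024 CPM in Mttp_KO_CM. Its rise was small and its groups did not overlap (1.08-fold, log2 0.12, SE 0.024, edgeR adjusted p = 3.4e-04). The polyamine oxidase Paox and the pipecolate and sarcosine oxidase Pipox had log2 changes of -0.06 (SE 0.093) and -0.09 (SE 0.057), and neither passed. Paox overlaps Echs1 on the opposite strand, which had 12176 counts in all to 1886 for Paox.

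Uox, the urate oxidase, rose unevenly. Its values were 112, 104, 107, 124 and 128 CPM in Mttp_flox_CM and 127, 125, 176, 174 and 163 CPM in Mttp_KO_CM. Mttp_KO_CM replicates 1 and 2 lay within the range of Mttp_flox_CM and the other 3 libraries above it (log2 0.41, SE 0.077, edgeR adjusted p = 1.5e-04). Its coefficient of variation was 16.3% in Mttp_KO_CM, where the median over the 35 genes was 5.33%. Of the enzymes next to Uox in purine breakdown, Xdh, which forms urate, fell by 0.12, and Urah and Urad, which act after Uox, rose by 0.27 and 0.42 on the log2 scale.

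The glyoxylate enzymes among the members did not pass as higher. Hao1, which oxidises glycolate to glyoxylate, was at 15.6, 18.4, 16.4, 17.4 and 18.6 CPM in Mttp_flox_CM and at 10.839, 13.961, 17.335, 12.995 and 15.055 CPM in Mttp_KO_CM. The groups overlapped through Mttp_KO_CM replicate 3, and Hao1 fell by 0.30 in log2 (SE 0.095, edgeR adjusted p = 0.016). Without Mttp_KO_CM replicate 1, the lowest library, the value was -0.22 with an edgeR adjusted p = 0.057, which left 1 gene of the 35 lower. Agxt, which turns glyoxylate into glycine, was at 28.4 ± 2.33 and 26.6 ± 1.53 CPM (log2 -0.10, SE 0.060, edgeR adjusted p = 0.23). Outside the members, the glyoxylate reductase Grhpr rose by 0.43 and Hoga1, a mitochondrial source of glyoxylate, fell by 0.26.

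Mlycd, Lonp2 and Nudt12 all rose. Mlycd, which decarboxylates malonyl-CoA in peroxisomes, mitochondria and cytosol, was at 39.4, 36.4, 36.4, 37.2 and 34.2 CPM and at 68.5, 68.3, 65.5, 68.7 and 66.0 CPM. Its libraries were tightly grouped within each medium and wide apart between them (log2 0.88, SE 0.043, edgeR adjusted p = 1.8e-14). Lonp2, the protease of the matrix, rose from 164 ± 6.61 to 213 ± 14.02 CPM (log2 0.38, SE 0.039). Nudt12, which hydrolyses NADH and related nucleotides, rose from 45.3 ± 1.86 to 53.0 ± 2.28 CPM (log2 0.23, SE 0.044).

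Ether lipid genes changed in opposite directions. Gnpat and Agps, which make the alkyl glycerol backbone inside the organelle, rose from 74.3 ± 1.19 to 83.7 ± 0.808 CPM (log2 0.17, SE 0.034) and from 68.9 ± 2.77 to 75.4 ± 2.25 CPM, by 0.13 in log2 (SE 0.039, edgeR adjusted p = 0.010). The call for Agps was lost with library size alone (log2 0.09, edgeR adjusted p = 0.068). Far1, which supplies the fatty alcohol, was at 17.6, 20.2, 20.1, 21.4 and 21.3 CPM in Mttp_flox_CM and at 15.04, 15.15, 18.46, 17.71 and 15.20 CPM in Mttp_KO_CM. Only Mttp_flox_CM replicate 1 reached into the range of the other group, and Far1 fell by 0.30 in log2 (SE 0.075, edgeR adjusted p = 0.0026). The FPKM of Far1 was 0.107 to 0.131 of that of Gnpat in Mttp_flox_CM and 0.0795 to 0.0986 in Mttp_KO_CM. The gene 2810004N23Rik, on the opposite strand and overlapping Gnpat, had 71.1% of its counts and a log2 change of 0.25, so the 2 were not separated.

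Compared per gene length on the deposited FPKM scale, Cat was the most abundant of the 36 transcripts, at 357 ± 9.02 in Mttp_flox_CM and 388 ± 3.90 in Mttp_KO_CM. In Mttp_flox_CM it was followed by Phyh at 100.3 ± 3.30, Ech1 at 63.3 ± 2.53, Abcd3 at 46.5 ± 1.67 and Decr2 at 46.0 ± 1.91 FPKM, the last 2 within their spread. In Mttp_KO_CM the order after Cat was Abcd3 at 122 ± 3.97, Phyh at 113 ± 3.87 and Ech1 at 110.3 ± 3.16 FPKM, the last 2 within their spread, and Pex11a moved from rank 12 to rank 5. The summed FPKM of the 36 genes ran from 938 to 982 in Mttp_flox_CM, of which Cat took 36.9 to 37.7%, and Cat took 30.8 to 31.2% in Mttp_KO_CM. Without Cat the sum went from between 592 and 611 to between 848 and 873 FPKM. For the 12 peroxins other than Pex11a the sums were 130.2 to 138 and 154 to 161 FPKM. The deposited FPKM values carry their own scaling between libraries, which the sources used here do not describe, so these sums compare libraries only roughly.

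**Figure D3:**
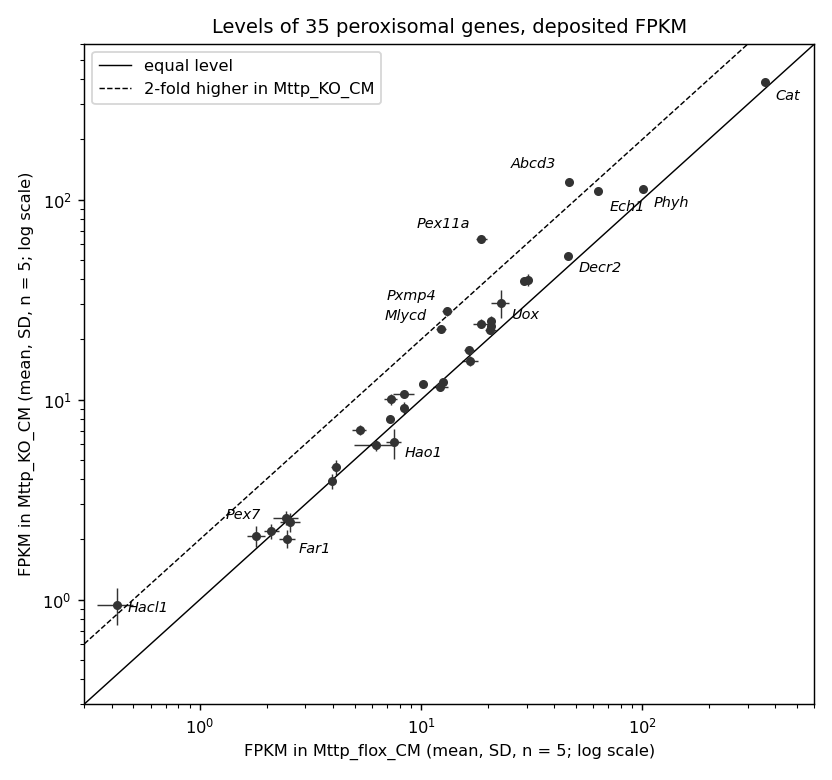
Deposited FPKM of the 35 genes with counts in Mttp_flox_CM (x axis) and Mttp_KO_CM (y axis), both on log scales, as mean with SD over 5 libraries; the solid line marks equal levels and the dashed line 2-fold higher levels in Mttp_KO_CM. Pex11a, Abcd3, Pxmp4 and Hacl1 lie on or above the dashed line, while Cat, the highest, lies near the solid one.

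The other peroxisome genes, from a list of 86 also made with earlier results known, likewise rose more often than they fell. Of 79 tested, 52 rose, or 65.8%, and 5 fell, with a median log2 change of 0.26. Among fission, tethering and turnover genes 7 of 14 rose and 0 fell, and those that rose included the lipase Pnpla8 (log2 0.34), the tether Acbd5 (0.29) and Tmem135 (0.37). Core beta-oxidation rose in 7 of 10 genes, with Ehhadh at 2.24 and Acaa1b at 1.98 on the log2 scale. In transport and activation 9 of 10 genes rose, among them the acyl-CoA synthetase gene Acsl1 by 2.02. Thioesterase, nudix and CoA genes rose in 8 of 12, Acot4 by 1.76, and fell in Acnat2 (-1.27) and Baat (-0.53), which conjugate acyl groups to amino acids. Redox enzymes and dehydrogenases rose in 11 of 18, Hsdl2 by 1.36, and later ether lipid genes in 2 of 5, Selenoi by 0.20 and Tmem189 by 0.19. The neighbours in glyoxylate and urate metabolism rose in 5 of 7 and fell in 1.

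**Figure D4:**
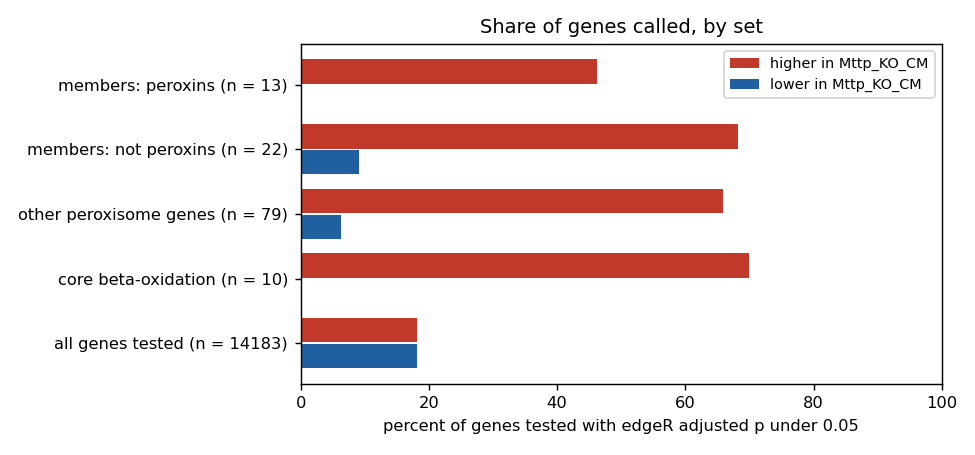
Percent of genes tested that were higher (red) or lower (blue) in Mttp_KO_CM at an edgeR adjusted p under 0.05 (x axis), for the 13 peroxins and 22 other members, the 79 other peroxisome genes, the 10 core beta-oxidation genes among those, and all 14183 genes. The share higher was 46.2% in the peroxins, 68.2% in the other members and 18.2% over all genes; differences between sets were not tested.

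The libraries were similar in depth and the members varied little within groups. Depth was 14199798 to 15950530 counts in Mttp_flox_CM libraries and 14283517 to 17178131 in Mttp_KO_CM libraries, and mitochondrial transcripts took 3.38 to 3.51% and 3.40 to 3.60% of counts. The median coefficient of variation over the 35 genes was 5.39% in Mttp_flox_CM and 5.33% in Mttp_KO_CM. Gnpat varied least, at 1.60% and 0.965%, and Pxmp2 and Hacl1 most in Mttp_flox_CM, at 20.03% and 18.8%. Annotated genes on the opposite strand also overlapped Pex3 and Pex13, where Adat2 and Pus10 had 49.1% and 89.4% of the counts of the peroxin. Adat2 rose by 0.42 in log2 (edgeR adjusted p = 0.0019) and Pus10 by 0.14 (edgeR adjusted p = 0.029). Pex3 and Pex13 were not separated from these neighbours either.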

How the data were processed

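RNA-seq was carried out on cultured mouse hepatocytes, 5 libraries per group. The authors deposited whole-number counts per gene and, for the same libraries, FPKM values; the build GRCm39, the aligner HISAT2 (2.0.5) and the counter featureCounts (1.5.0-p3) are named per the submitters' processing notes. Neither strand setting nor annotation is given there. Column names matched a label for 8 libraries; the other 2, 1 per group, carry a number that no label gives, were placed by their letter, and are called unnumbered.

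Counts were tested in R 4.3.3 with edgeR 4.0.16, using TMM, filterByExpr (minimum count 10, minimum total 15; 14183 genes and 99.8% of counts kept) and the quasi-likelihood test (prior count 0.125), with Benjamini-Hochberg adjustment over all genes tested. The fit was tested on simulated data with 50 changed genes of each size. There edgeR called 66% of 1.25-fold, 66% of 1.5-fold, 84% of 2-fold and 92% of 4-fold changes in the right direction. A gene that did not pass can therefore still have changed. No pair of libraries in a group was identical, and counts of each of 20 such pairs differed by more than sampling noise (chi-square per degree of freedom 2.04 to 4.07). Alternatives used DESeq2 1.42.0, limma 3.58.1 on log2 of FPKM, other scalings and filters, a replicate block, and libraries left out. Intervals and floors cover counting error only.

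The members, lists and ratios were chosen with earlier results of these data known. The rule for named genes took all 36 members, and, by smallest p, up to 3 genes higher and 3 lower of each other peroxisome list and up to 2 per marker list; Urah was named after its value was seen, as were overlapping genes. Promoters are RefSeq's, GRCm38.p6; protein sequences were not used here. Results for some genes of the other peroxisome lists are not reported here.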

Additional observations from a re-analysis of the deposited data

Results flagged for a closer look

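Within groups, 2 of 70 sets of 5 libraries held a library that stood apart by Dixon's test, where chance flags about 1 set in 20. Pex26 was at 23.9 CPM in the unnumbered Mttp_flox_CM library and between 22.0 and 22.4 CPM in the other 4. Paox was at 10.4 CPM in Mttp_flox_CM replicate 3 and between 12.8 and 13.7 CPM in the other 4. Neither gene passed the test between media.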

How the results depend on the processing

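Under 20 alternatives, 20 of the 23 genes called kept their call and direction in every case, and 3, Pex6, Hao1 and Agps, lost it at least once. The number higher ran from 19 to 22, and leaving out libraries gave 20 to 22. The number lower was 1 on log2 of FPKM plus 1, plus 0.1 and plus 1 without a filter, where Hao1 did not pass, and leaving out libraries gave 1 to 2. With library size alone the median log2 change was 0.13 and 10 other peroxisome genes were lower instead of 5. Genes not called changed sign in 6 cases. Paox was at 0.020 with the replicate block and at 0.016 without both unnumbered libraries, Pxmp2 at 0.0034 without Mttp_flox_CM replicate 2, and Pex26 at 0.0038 without the unnumbered Mttp_flox_CM library, 0.00047 without Mttp_KO_CM replicate 2 and 0.023 without Mttp_KO_CM replicate 4. Leaving out libraries gave -0.061 to 0.023 for Pex26 and -0.183 to 0.0034 for Pxmp2. With a replicate block over 4 numbers 20 members were higher and 2 lower, and 2326 and 2325 of all genes; same-numbered libraries correlated by -0.00887 to 0.0747 in their deviations, so the numbers were not taken as pairs. The log2 change of Hacl1, with 22 to 88 counts per library, ran from 0.93 to 1.21 over the alternatives on counts. It was 0.45 on log2 of FPKM plus 1, where the added 1 exceeds the mean FPKM of Hacl1 in both groups. Its call was kept under all 20 alternatives. Depth limits Hacl1 most among the genes tested, and whether it limits Dao, with 0 counts in every library, was not tested.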
